A study of Homo sapiens with 4 samples.

Results

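The ERBB receptors and their EGF-family ligands were followed in PC9 cells and in PC9OR cells. PC9 is a lung adenocarcinoma cell line that carries an activating deletion in *EGFR*, and PC9OR is a derivative of it that is resistant to osimertinib, an inhibitor of mutant *EGFR*. The 9 genes were taken by name from the 16813 genes listed in at least 1 library. They comprised 3 receptors (*EGFR*, *ERBB2* and *ERBB3*) and 6 ligands (*AREG*, *EREG*, *TGFA*, *HBEGF*, *BTC* and *NRG1*), and all 9 were listed in all 4 libraries. RNA sequencing was done on 2 biological replicates of each line. Both lines carry the genotype label WT and no treatment of the cells is given with the samples, so whether osimertinib was present at harvest is not known here. PC9OR stands for a single resistant line. In bulk RNA, fewer cells that make a transcript and less of it in each cell cannot be told apart.

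The ERBB receptors are tyrosine kinases at the cell surface that pair up when a ligand binds, and the pair then signals through adaptors to the RAS, PI3K and STAT pathways. *EGFR* binds *AREG*, *TGFA*, *HBEGF*, *EREG* and *BTC*, *ERBB3* binds *NRG1* and has a weak kinase of its own, and *ERBB2* has no known ligand and serves as the partner of the others. The ligands are made as precursors in the membrane and are released by ADAM proteases. In lung adenocarcinoma cells with mutant *EGFR*, growth depends on this receptor, and signaling from *ERBB2* or *ERBB3* is a known route by which such cells escape its inhibitors.

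On GRCh37, *EGFR* lies on the plus strand at chr7:55086710-55279321, with 28 exons in its canonical transcript. *HBEGF* lies on the minus strand at chr5:139712428-139726188 and has 6 exons. The genes of 3 ligands lie close together on chromosome 4, with *EREG* at chr4:75230862-75254466 on the plus strand, *AREG* at chr4:75310853-75320722 on the plus strand and *BTC* at chr4:75669969-75719733 on the minus strand. *TGFA* lies at chr2:70674416-70781325 on the minus strand. *ERBB2* spans chr17:37844167-37886679 and *ERBB3* spans chr12:56470583-56497289, both on the plus strand.

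The sequences upstream of 4 genes are shown because these genes separate the levels that fell in PC9OR (*EGFR*, *HBEGF* and *AREG*) from a neighbor of *AREG* that was not called (*EREG*). Each is the 250 bases before the gene's start from RefSeq on GRCh38.p14, read 5′ to 3′ on the strand of the gene, and each was found without a mismatch in GRCh37. The capitals mark a TATA box (TATAAA), a GC box (GGGCGG), an AP-1 site (TGANTCA) or a cyclic AMP response element (TGACGTCA) on either strand, with overlapping matches allowed. The GRCh37 positions were chr7:55086460-55086709 (plus strand) for *EGFR*, chr5:139726189-139726438 (minus strand) for *HBEGF*, chr4:75310603-75310852 (plus strand) for *AREG* and chr4:75230612-75230861 (plus strand) for *EREG*.
EGFR: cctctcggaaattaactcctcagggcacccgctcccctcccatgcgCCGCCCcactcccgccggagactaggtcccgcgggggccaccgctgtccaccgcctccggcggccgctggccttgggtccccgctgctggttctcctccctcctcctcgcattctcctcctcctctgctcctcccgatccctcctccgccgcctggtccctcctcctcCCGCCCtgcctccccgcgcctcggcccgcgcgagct
HBEGF: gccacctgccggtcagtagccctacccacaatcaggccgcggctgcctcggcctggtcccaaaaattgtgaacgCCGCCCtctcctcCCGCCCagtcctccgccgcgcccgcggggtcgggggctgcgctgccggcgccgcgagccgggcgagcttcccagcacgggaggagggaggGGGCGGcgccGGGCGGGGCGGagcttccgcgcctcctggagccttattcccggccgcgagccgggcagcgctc
AREG: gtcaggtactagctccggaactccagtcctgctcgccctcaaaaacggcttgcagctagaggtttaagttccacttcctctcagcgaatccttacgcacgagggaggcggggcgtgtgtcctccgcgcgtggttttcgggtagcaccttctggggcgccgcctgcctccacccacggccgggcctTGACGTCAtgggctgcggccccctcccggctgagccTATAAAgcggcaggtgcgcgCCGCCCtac
EREG: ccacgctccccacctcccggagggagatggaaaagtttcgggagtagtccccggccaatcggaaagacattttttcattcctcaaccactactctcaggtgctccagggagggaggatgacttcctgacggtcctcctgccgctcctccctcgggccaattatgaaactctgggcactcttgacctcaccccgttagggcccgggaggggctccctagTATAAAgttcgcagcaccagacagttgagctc
The windows printed for *EGFR* and *HBEGF* were 73.6% and 76.4% GC, against a median of 58.0% over the 35116 windows of this length in the RefSeq table. They held 2 and 5 GC boxes, a motif found in 42.6% of all windows, and no TATAAA. The windows of *AREG* and *EREG* were 65.2% and 58.0% GC and each held a TATA box, which 10.7% of all windows did, with its first base 29 bases before the start of *AREG* and 32 bases before that of *EREG*. The *AREG* window also held a GC box, 9 bases before the start. The cyclic AMP response element in *AREG*, 65 bases before the start, is a motif of 1.6% of windows. No window printed here held an AP-1 site, which 6.6% of all windows held. For *EGFR* the table gave a further start inside the gene, whose window (chr7:55177282-55177531, not printed) was 38.8% GC and held 2 TATA boxes, 2 AP-1 sites and no GC box. The table also gave windows for *ERBB2*, *TGFA* and *BTC*, and had none for *ERBB3* and *NRG1*. A window of *TGFA*, which was not called, was 75.6% GC with 3 GC boxes and no TATA box. Another of its windows was 64.0% GC and held neither. High GC with GC boxes and no TATA box was thus not particular to genes that fell. A match of letters is a description of the window and not a bound site.

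The libraries held 23201307 and 29062064 expected counts in the PC9 replicates, against 31948974 and 32203998 in those of PC9OR. An expected count is the estimated number of reads of a gene, and 3 counts, taken as the smallest measurable amount, were 0.0932 to 0.1293 CPM (the count scaled to the total of its library). The epithelial markers *EPCAM*, *KRT7*, *KRT8*, *KRT18*, *KRT19* and *CDH1* were all expressed. *KRT7*, *KRT8*, *KRT18* and *KRT19* were called higher in PC9OR (log2 fold changes of 0.94 to 1.28), *CDH1* was called lower (-1.46, adjusted p = 0.00814), *EPCAM* was not called, and the list summed to 5820 and 6600 CPM in PC9 and 12400 and 12100 CPM in PC9OR. The lung markers *NKX2-1* and *NAPSA* had at most 12 counts and *SFTPB* and *SFTPC* had 0, so that the lung origin given for the line was not visible in these markers. Of 5 leukocyte markers, *CD68* was called lower in PC9OR, *PTPRC* had at most 1 count and *CD3E* had 0, and the summed level of the list was 14.4 to 18.2 CPM in PC9 and 7.26 to 7.40 CPM in PC9OR. Of 5 endothelial markers, *CDH5* was called lower and *KDR* had 0 counts, with a summed level of 23.8 to 37.6 CPM in PC9 and 5.18 to 5.30 CPM in PC9OR, and the 6 fibroblast markers summed to at most 1.70 CPM. The libraries differed in how counts depended on transcript length, and PC9 replicate 1 the most. The log2 ratio of PC9 replicate 2 to replicate 1 fell with length over genes (Spearman rho = -0.38), that of the PC9OR replicates did not (rho = -0.01), and that of the PC9OR mean had a rho of -0.38 against PC9 replicate 1 and of -0.27 against PC9 replicate 2. These correlations are across genes, which are not independent replicates. Changes in genes with long transcripts, among them *EGFR*, *ERBB2*, *ERBB3* and *EREG*, were therefore also computed in a fit that corrects each library for transcript length and GC content, called the corrected fit here.

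Which of the receptors and ligands differed between the resistant and the parental line was asked with edgeR's quasi-likelihood test over 13148 genes, and a gene was called at a Benjamini-Hochberg adjusted p under 0.05. Of the 9 genes, 3 were called lower in PC9OR (*EGFR*, *HBEGF* and *AREG*), 0 were called higher and 6 were not called. Over all genes tested, 20.8% were called lower and 15.6% higher. At an unadjusted p under 0.05 the counts were the same 3 lower and 0 higher, and DESeq2 also called 0 higher. The MA-plot-based model that sets aside the spread between replicates called 1 higher. The shares above are those of the adjusted edgeR calls, and none is given for these alternatives. Both PC9OR libraries lay below both PC9 libraries in 5 of the 9 genes and above them in 1, where 38.2% and 39.6% of all genes tested did so. In the corrected fit, *EGFR*, *HBEGF* and *AREG* were again the 3 genes called lower, and *ERBB2* and *ERBB3* were called higher, against 19.9% of all genes lower and 22.9% higher. The median log2 fold change of the 9 genes was -0.14, and -0.18 in the corrected fit, where those of all genes tested were 0.01 and 0.07.

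**Figure D1:**
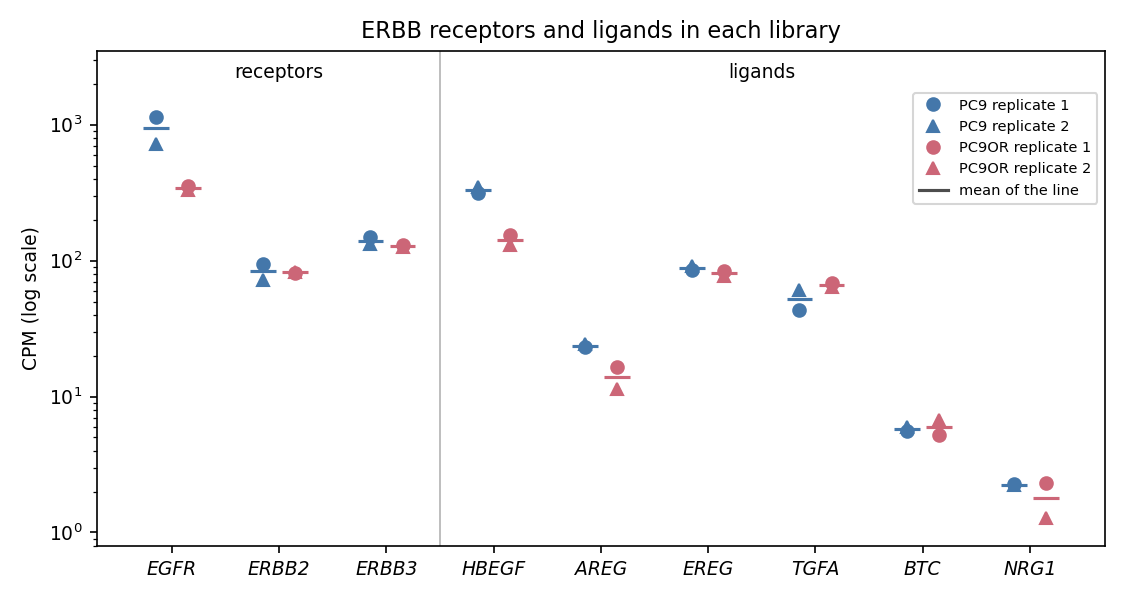
Expression of the 3 receptors and 6 ligands in each library, in CPM on a log axis. Circles are replicate 1, triangles replicate 2, blue PC9, red PC9OR, and each bar is the mean of a line. *EGFR*, *HBEGF* and *AREG* lie apart between the lines. The lines of *ERBB3*, *EREG* and *TGFA* also do not overlap, by smaller margins, while the points of *ERBB2*, *BTC* and *NRG1* overlap.

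*EGFR*, the target of osimertinib, was the receptor with the highest level in both lines and the only receptor of the 3 called lower. Its level was 1148 CPM in PC9 replicate 1, 727 CPM in PC9 replicate 2, 355 CPM in PC9OR replicate 1 and 329 CPM in PC9OR replicate 2. Both PC9 libraries lay above both PC9OR libraries, and the PC9 replicates differed more from each other than the PC9OR replicates did. The means were 938 ± 298 CPM in PC9 and 342 ± 18.2 CPM in PC9OR (SD, n = 2 each). The level was 2.74-fold lower in PC9OR, a log2 fold change of -1.46 with a standard error of 0.237 and a 95% interval of -2.06 to -0.85 (edgeR, adjusted p = 0.0132). In the corrected fit the log2 fold change was -1.0 (adjusted p = 0.00784). Among all genes of a library ordered by FPKM (fragments per kilobase of transcript scaled to library size, a level per length), *EGFR* ranked 279 and 548 in the PC9 replicates and 1523 and 1639 in the PC9OR replicates. The antisense gene *EGFR-AS1*, at chr7:55247443-55256670 inside *EGFR*, was not listed in any library, and whether the counting used the strand is not stated.

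*ERBB2*, the receptor without a ligand, had 94.2 and 72.5 CPM in the PC9 replicates and 81.4 and 82.4 CPM in the PC9OR replicates. The groups overlapped, with both PC9OR values between those of PC9. The log2 fold change was -0.02 with a standard error of 0.156 and a 95% interval of -0.42 to 0.38 (edgeR, adjusted p = 0.913), so that a change of that size either way was not resolved. The corrected fit turned it to 0.39 (adjusted p = 0.0181), it was 0.17 without PC9 replicate 1, and it was called lower at -0.22 without PC9 replicate 2 (adjusted p = 0.0453). *ERBB3*, the receptor of *NRG1*, had 148 and 132 CPM in PC9 and 131 and 127 CPM in PC9OR. Its PC9OR values lay below those of PC9 by a small margin. The log2 fold change was -0.12 with a standard error of 0.112 and a 95% interval of -0.41 to 0.16 (adjusted p = 0.413). In the corrected fit it was 0.32 (adjusted p = 0.0269), and without PC9 replicate 2 it was called lower at -0.22 (adjusted p = 0.042). The direction of *ERBB2* and of *ERBB3* thus changed with the treatment of transcript length, which was not so for *EGFR*.

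*HBEGF*, a ligand of *EGFR* and *ERBB4* that is also the diphtheria toxin receptor, was the ligand with the highest level in both lines. It had 313 and 346 CPM in the PC9 replicates and 154 and 130 CPM in the PC9OR replicates. The lines did not overlap, and the gap between them was wider than that between replicates. The level was 2.32-fold lower in PC9OR, a log2 fold change of -1.21 with a standard error of 0.135 and a 95% interval of -1.56 to -0.87 (edgeR, adjusted p = 0.00683). The value was -1.16 in the corrected fit (adjusted p = 0.00245).

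*AREG*, a low-affinity ligand of *EGFR*, had 23 and 24.2 CPM in the PC9 replicates and 16.6 and 11.4 CPM in the PC9OR replicates. All PC9OR values lay below those of PC9, and here the PC9OR replicates were the more spread. The level was 1.69-fold lower, a log2 fold change of -0.75 with a standard error of 0.217 and a 95% interval of -1.31 to -0.20 (edgeR, adjusted p = 0.0482), and -1.09 in the corrected fit (adjusted p = 0.0148). The call was lost when any single library was left out. The log2 fold change was then -0.80 without PC9 replicate 1 (adjusted p = 0.0631), -0.73 without PC9 replicate 2 (adjusted p = 0.0718), -1.04 without PC9OR replicate 1 (adjusted p = 0.0551) and -0.50 without PC9OR replicate 2 (adjusted p = 0.289). The *AREG* values are also uncertain because GRCh37 holds a copy of the gene, *AREGB*, at chr4:75480629-75490486. The window printed above for *AREG* occurs again before that copy, at chr4:75480379-75480628. The expected counts of *AREG* were not whole numbers and *AREGB* had no row of its own.

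*TGFA*, a ligand specific to *EGFR*, was the only gene of the 9 with both PC9OR libraries above both PC9 libraries. It had 43.0 and 60.9 CPM in PC9 and 68.7 and 64.1 CPM in PC9OR. PC9 replicate 1 was the lowest of the 4 libraries. The log2 fold change of 0.35 had a standard error of 0.191 and a 95% interval of -0.14 to 0.84 and was not called (edgeR, adjusted p = 0.196). In the corrected fit it was 0.55 (adjusted p = 0.0724). With the replicate number also in that fit, *TGFA* was called higher at 0.58 (adjusted p = 0.0476). It was also called higher by edgeR with a correction for length alone and the replicate number (0.59, adjusted p = 0.0191). The MA-plot-based model called it higher as well (0.32). Leaving out PC9 replicate 2 moved the uncorrected value to 0.61, and leaving out PC9 replicate 1 moved it to 0.12.

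*EREG*, the neighbor of *AREG* and a ligand of *EGFR* and *ERBB4*, had 86.0 and 91.0 CPM in PC9 and 84.3 and 76.9 CPM in PC9OR. The PC9OR values lay just below those of PC9, and the log2 fold change was -0.14 with a 95% interval of -0.43 to 0.15 (edgeR, adjusted p = 0.375). In the corrected fit it was -0.17 (adjusted p = 0.203). *BTC*, another ligand of the same receptors, had 5.59 and 5.93 CPM in PC9 and 5.24 and 6.69 CPM in PC9OR. Its lines overlapped, with a log2 fold change of 0.05 and an interval of -0.57 to 0.67 (adjusted p = 0.878). *NRG1*, the ligand of *ERBB3* and *ERBB4* at chr8:31496738-32713184 on the plus strand, was the lowest, with 2.26 and 2.22 CPM in PC9 and 2.31 and 1.28 CPM in PC9OR. The highest and the lowest *NRG1* value were both in PC9OR, and the log2 fold change of -0.32 had an interval of -1.36 to 0.72 (adjusted p = 0.562). The interval of *NRG1* covers a fall of the size seen in *AREG*, and those of *EREG* and *BTC* do not.

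**Figure D2:**
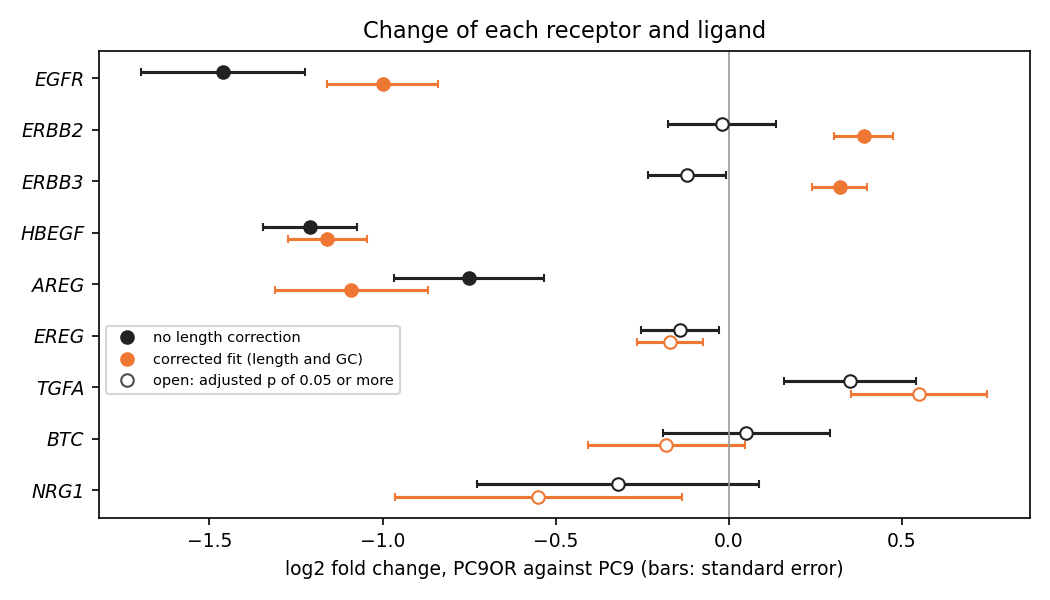
Log2 fold change of PC9OR against PC9 for each gene (horizontal axis), with bars of 1 standard error, from the fit without a length correction (black) and from the corrected fit (orange). Filled points have an adjusted p under 0.05. *EGFR*, *HBEGF* and *AREG* lie on the negative side in both fits, and *ERBB2* and *ERBB3* move from -0.02 and -0.12 to 0.39 and 0.32.

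The order of the levels was taken from FPKM, which allows genes to be set side by side. In PC9, *EGFR* (125 ± 40.1 FPKM, SD, n = 2) and *HBEGF* (103 ± 5.66) were the highest and overlapped each other. *ERBB3* (19.1 ± 1.51), *AREG* (14.4 ± 0.346), *EREG* (13.7 ± 0.325), *ERBB2* (12.9 ± 2.62), *TGFA* (8.54 ± 2.0), *BTC* (1.54 ± 0.0566) and *NRG1* (0.70 in both libraries) followed, and of these neighbors only *EREG* and *ERBB2* overlapped. In PC9OR, *HBEGF* (43.5 ± 5.77 FPKM) and *EGFR* (39.2 ± 2.40) were again the highest and overlapped. They were followed by *ERBB3* (19.1 ± 0.24), *ERBB2* (12.4 ± 0.0354), *EREG* (12.2 ± 0.948), *TGFA* (10.8 ± 0.686), *AREG* (8.41 ± 2.34), *BTC* (1.56 ± 0.24) and *NRG1* (0.485 ± 0.177), with an overlap of *ERBB2* and *EREG*. *AREG* was above *TGFA* in PC9 and below it in PC9OR. Its place beside *EREG* in PC9 depended on the unit, since in TPM (computed from the expected counts and lengths) *AREG* held 9.64% of the ligand level and *EREG* 9.96%. The ratio of *TGFA* to *AREG* in FPKM was 0.504 and 0.680 in the PC9 replicates and 1.12 and 1.52 in the PC9OR replicates.

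The summed level of the 3 receptors was 188 and 126 FPKM in the PC9 replicates and 72.6 and 68.8 FPKM in the PC9OR replicates. *EGFR* made up 81.5% and 76.9% of it in PC9 and 56.3% and 54.5% in PC9OR. *ERBB3* held 10.7% and 14.3% in PC9 and 26.5% and 27.5% in PC9OR, and *ERBB2* held 7.84% and 8.80% in PC9 and 17.1% and 18.0% in PC9OR. Both shares were higher in PC9OR while the PC9OR values of *ERBB2* and *ERBB3* in FPKM lay within the range of the PC9 values. In CPM, both PC9OR values of *ERBB3* (131 and 127) lay below those of PC9 (148 and 132). FPKM divides by the transcript length given for each library, which differed between the lines by 12.98% for *EGFR* and -10.19% for *ERBB3*. It was used here without the correction of the corrected fit. The part of length in these shares and ratios was not tested. *EGFR* transcripts were 10.4 and 8.74 times those of *ERBB2* in PC9 and 3.29 and 3.03 times in PC9OR. The ratio of *ERBB3* to *ERBB2* was 1.36 and 1.63 in PC9 and 1.55 and 1.53 in PC9OR, so its lines overlapped.

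The summed level of the 6 ligands was 136 and 148 FPKM in the PC9 replicates and 83.7 and 70.0 FPKM in the PC9OR replicates. *HBEGF* made up 72.8% and 72.4% of it in PC9 and 56.8% and 56.3% in PC9OR. The share of *TGFA* was 5.24% and 6.74% in PC9 and 13.4% and 14.7% in PC9OR, and that of *EREG* was 9.91% and 9.42% in PC9 and 15.3% and 16.4% in PC9OR. The *AREG* share, 10.4% and 9.91% in PC9 and 12% and 9.66% in PC9OR, overlapped between the lines. *BTC* held at most 2.47% and *NRG1* at most 0.729% in any library. With 2 libraries against 2, an exact two-sided permutation test of a single such share cannot go below p = 0.333, so the shares and ratios are given without a test.

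**Figure D3:**
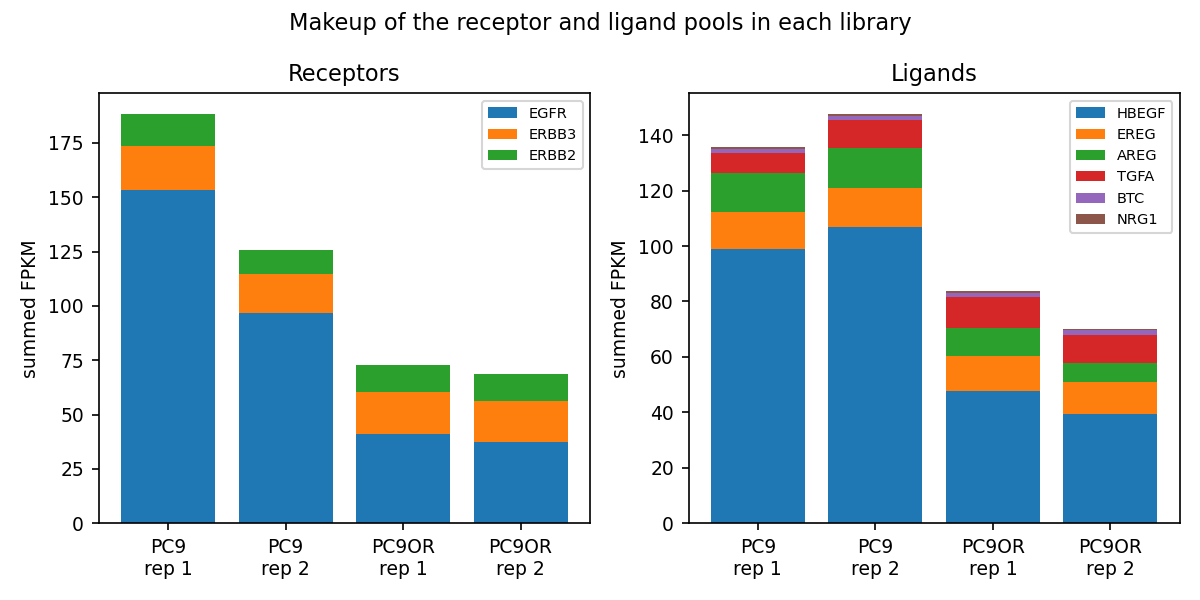
Summed FPKM of the receptors (left) and of the ligands (right) in each library, stacked by gene. The *EGFR* block (153 and 96.8 FPKM in PC9, 40.9 and 37.5 FPKM in PC9OR) and the *HBEGF* block (98.9 and 107 FPKM in PC9, 47.5 and 39.4 FPKM in PC9OR) are smaller in PC9OR, and the blocks above them differ less.

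Each library also gave a transcript length for each gene, the mean over its RefSeq isoforms weighted by their estimated use. For *EGFR*, with 9 isoforms counted, it was 5396 and 5294 bases in the PC9 replicates and 6058 and 6018 bases in the PC9OR replicates, 12.98% longer in PC9OR. For *ERBB3*, with 2 isoforms, it was 5289 and 5175 bases in PC9 and 4770 and 4628 bases in PC9OR, a difference of -10.19%. For *NRG1*, with 23 isoforms, it was 2397 and 2315 bases in PC9 and 2714 and 2526 bases in PC9OR, 11.23% longer in PC9OR. *TGFA* differed by -0.88%. The lines did not overlap in these 4 of the 6 genes whose length varied, and over the 7209 genes tested whose length varied between libraries they did not overlap in 42.9%. *EGFR* and *ERBB3* are known to have short transcripts that encode soluble receptors besides the full-length form. The deposited values are per gene, so the isoforms behind these lengths were not analysed here. When the length of each library entered the fit as an offset, the log2 fold change was -1.63 for *EGFR* (edgeR, adjusted p = 0.00958) and 0.03 for *ERBB3* (adjusted p = 0.829). *AREG*, *EREG* and *HBEGF* each had 1 transcript and the same length in every library.

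**Figure D4:**
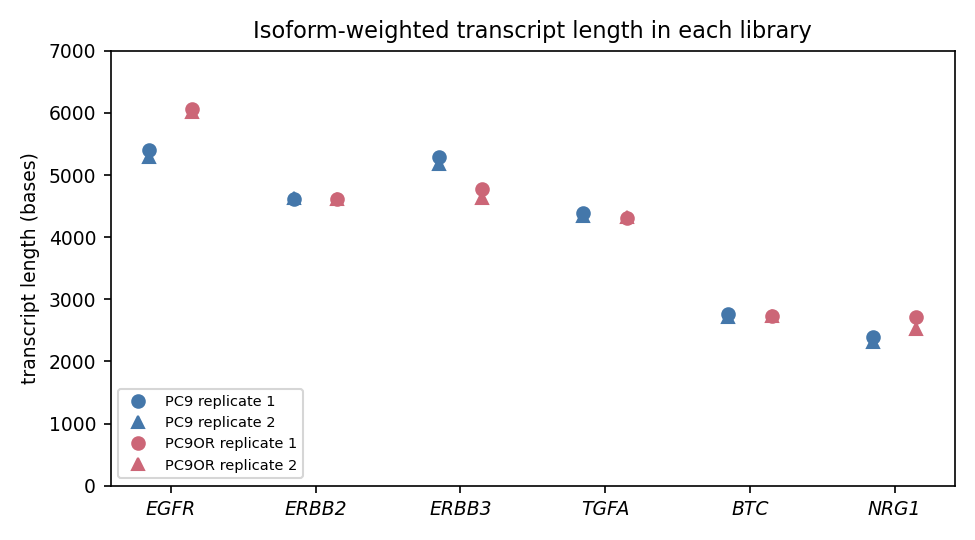
Isoform-weighted transcript length in bases (vertical axis, from 0) of the 6 genes with more than 1 transcript, in each library (circles, replicate 1; triangles, replicate 2; blue, PC9; red, PC9OR). *EGFR* lies at 5294 to 5396 bases in PC9 and at 6018 to 6058 bases in PC9OR, while *ERBB2*, *TGFA* and *BTC* differ by under 1%.

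Of the remaining receptor and ligands of the family, only *EGF* and *NRG2* had enough counts to be tested. *ERBB4*, the fourth receptor, had 19 and 8 counts in the PC9 replicates and 5 and 0 counts in the PC9OR replicates and was too low to test. *EGF*, the ligand after which the receptor is named, had 3.75 and 2.88 CPM in PC9 and 1.12 and 1.63 CPM in PC9OR. Its lines did not overlap, and *EGF* was called lower with a log2 fold change of -1.27 and a standard error of 0.364 (edgeR, adjusted p = 0.0483), but not in the corrected fit (-1.03, adjusted p = 0.0593). *NRG2* had 16, 11, 12 and 32 counts in the same order of libraries (log2 fold change 0.38, adjusted p = 0.678). *EPGN* had 9.86 counts in PC9 replicate 1 and 0 in the rest, *NRG4* had 5.97 counts in PC9 replicate 2 and 0 in the rest, and *NRG3* was not listed in any library.

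Other genes of the pathway were described from 5 lists of 67 genes in all, of which 61 were tested. In them 22 genes were called lower, 2 were called higher and 37 were not called, with a median log2 fold change of -0.28. Over all genes tested, 20.8% were called lower and 15.6% higher, the shares against which the counts of each list below are set. In the corrected fit, 20 of the 61 were called lower and 5 higher, with a median of -0.14, where the shares over all genes were 19.9% and 22.9%. The counts of the main fit moved up or down with a single library left out, a fit in which a line has no replicate. No share over all genes is given for such fits.

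Among 12 genes of ligand shedding and transport, 4 of the 10 tested were called lower (20.8% over all genes) and 0 higher by edgeR (0 also at an unadjusted p under 0.05). *ADAM17* and *ADAM10*, the main proteases that release *AREG*, *HBEGF* and *BTC* from the membrane, were not among them, with log2 fold changes of 0.06 (adjusted p = 0.677) and -0.19 (adjusted p = 0.196). *ADAM12*, a metalloprotease able to cut *HBEGF*, had 64.9 and 51.8 CPM in PC9 and 14.9 and 15.8 CPM in PC9OR and fell by 1.93 on the log2 scale (adjusted p = 0.00479). *ADAM19*, a protease of neuregulins, fell by 1.31 (adjusted p = 0.00731), and by 0.62 in the corrected fit (adjusted p = 0.0113). *RHBDL2*, a rhomboid protease, had 34 and 42 counts in PC9. It was not listed in either PC9OR library, which was taken as 0. If so, it was at least 15.5-fold lower with 3 counts a library as the floor. Why a gene is absent from a library was not tested. *ADAM15* fell by 0.92 (adjusted p = 0.0072). *RHBDF2*, a rhomboid-like protein that carries *ADAM17* to the surface, had 82.14 counts in PC9 replicate 1. It was not listed in the other 3 libraries, which was taken as 0.

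All 18 genes of the adaptors and effectors were tested, and 9 were called lower and 1 higher (20.8% and 15.6% over all genes), with a median of -0.60, or -0.26 in the corrected fit, where 8 were lower and 2 higher (19.9% and 22.9% over all genes). *PIK3CB*, the beta catalytic subunit of PI3K, had 94.1 and 64.4 CPM in PC9 and 8.18 and 9.0 CPM in PC9OR. It was 9.21-fold lower, a log2 fold change of -3.20 with a standard error of 0.227 (adjusted p = 0.00401), and *PIK3CA*, the alpha subunit, had a value of 0.03 (adjusted p = 0.82) and was called higher in the corrected fit (0.38, adjusted p = 0.0268). *GAB2*, a docking protein of the pathway, fell by 1.45 (adjusted p = 0.00526), and by 0.80 in the corrected fit. *SOS1*, which activates RAS, fell by 0.95 (adjusted p = 0.0231). *NCK2*, an SH2 adaptor, had 16.1 and 15.5 CPM in PC9 and 38.3 and 33.0 CPM in PC9OR and rose by 1.18 (adjusted p = 0.00751). *PIK3R1*, a regulatory subunit of PI3K, was not listed in PC9 replicate 1, which was taken as 0, and had 372 to 392 counts in the other 3 libraries.

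Of the 16 inhibitors, ubiquitin ligases and phosphatases of the receptors, 4 were called lower and 1 higher (20.8% and 15.6% over all genes). Their median was -0.12. In the corrected fit 3 were called in each direction, where 19.9% of all genes were called lower and 22.9% higher. *CBL*, the ubiquitin ligase that marks active *EGFR* for breakdown, had 232 and 165 CPM in PC9 and 66.8 and 66.7 CPM in PC9OR and fell by 1.57 (adjusted p = 0.00761), and by 0.73 in the corrected fit (adjusted p = 0.0042). The receptor phosphatases *PTPRJ* and *PTPRK* fell by 1.46 (adjusted p = 0.0091) and 0.53 (adjusted p = 0.03), the latter not called in the corrected fit (-0.19, adjusted p = 0.0969). *PTPN2*, another phosphatase, fell by 0.37 (adjusted p = 0.0466). *SOCS5*, which promotes *EGFR* degradation, rose by 0.54 (adjusted p = 0.0196). *ERRFI1*, a feedback inhibitor that binds the *EGFR* kinase, had a log2 fold change of 0.03 (adjusted p = 0.83), and *LRIG1*, a negative regulator of all 4 receptors, had 9.58 and 10 counts in PC9 and 52 and 28.75 counts in PC9OR and was not called (1.70, adjusted p = 0.0546), but was called higher in the corrected fit (2.22, adjusted p = 0.0224).

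All 15 genes of receptor endocytosis and sorting were tested, and 4 were called lower (20.8% over all genes) and 0 higher (0 also at an unadjusted p under 0.05). Their median was -0.36 in both fits, and 5 were called lower in the corrected fit (19.9% over all genes). *RAB7A*, a GTPase of late endosomes, had 88.8 and 52.0 CPM in PC9 and 22.5 and 24.3 CPM in PC9OR and fell by 1.59 (adjusted p = 0.0147). *SH3KBP1*, an adaptor of *CBL*, fell by 1.38 (adjusted p = 0.0121), and the clathrin adaptors *EPN2* and *EPS15* fell by 0.89 (adjusted p = 0.025) and 0.64 (adjusted p = 0.0147). PC9 replicate 1 was the higher PC9 library in *PIK3CB*, *CBL*, *RAB7A* and *SH3KBP1*, as it was in *EGFR*. The part of transcript length in these values was not tested beyond the corrected fit.

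**Figure D5:**
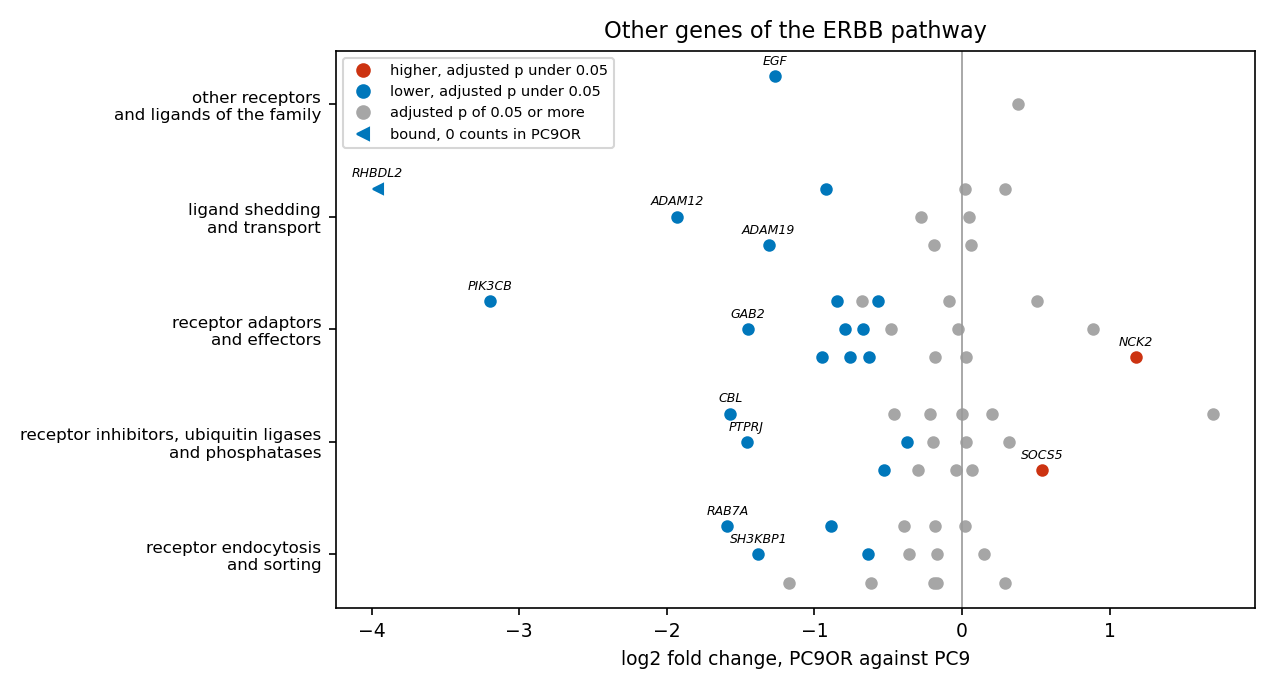
Log2 fold change of PC9OR against PC9 (horizontal axis) for the 61 tested genes of the 5 pathway lists, 1 point a gene, with points spread vertically for legibility. Blue points were called lower (22), red points higher (2) and gray points not called (37), and the triangle marks *RHBDL2* at the bound set by 3 counts. The genes called higher and those with the larger falls are named.

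The genes whose pattern over the 4 libraries was most like that of *EGFR* were *CBFA2T2*, *PCNT* and *BPTF*. Likeness was the distance between log2 CPM values centered on their mean over the 4 libraries, and it was 0.0413 for *CBFA2T2*, 0.0452 for *PCNT* and 0.0535 for *BPTF*. *PCNT*, a centrosome protein, had 141 and 87.0 CPM in PC9 and 41.5 and 39.4 CPM in PC9OR. *BPTF*, a chromatin remodeling subunit, had 147 and 96.5 CPM in PC9 and 46.0 and 41.4 CPM in PC9OR. Like *EGFR*, they were highest in PC9 replicate 1. *EGFR* had the largest change of the 9 genes in the main comparison. It did not in the corrected fit, at -1.0 beside -1.16 for *HBEGF* and -1.09 for *AREG*. Nor did it without PC9 replicate 1, at -1.10 beside -1.29 for *HBEGF*.

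The genes around each receptor and ligand were set beside it, as the 10 nearest genes tested on either side. Over all genes tested, 15.6% were called higher and 20.8% lower. Around *EGFR* the median log2 fold change was -0.05, with 2 genes called higher and 8 lower of 20, and its nearest neighbors *SEC61G* and *LANCL2* had values of 0.29 (adjusted p = 0.478) and 0.26 (adjusted p = 0.121). Around *HBEGF* the median was -0.01, with 2 genes called in each direction, and of its nearest neighbors *PFDN1* had a value of -0.07 (adjusted p = 0.593) and *ANKHD1* one of -1.32 (adjusted p = 0.0229). Around *AREG* the median was -0.18, with 0 of 20 genes called higher and 4 called lower, and *EREG* and *BTC*, which lie among these genes, were not called. The neighborhood of *TGFA* had a median of 0.53, with 10 genes called higher and 2 lower, beside 0.35 for *TGFA* itself. Around *ERBB2* the median was 0.25, with 3 genes called higher and 4 lower, and around *ERBB3* it was 0.16, with 4 called higher and 3 lower.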

How the data were processed

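RNA of 4 libraries was measured, 2 biological replicates each of PC9 and PC9OR, in stranded libraries read for 100 bases. For each gene the authors deposited an expected count, which is not normalized, and an FPKM value, scaled by transcript length and library size, with an isoform-weighted length. The submitters' processing notes name Bowtie2 2.2.5, RSEM 1.2.12 and GRCh37, and the methods name SOAP for filtering reads. Symbols were matched for 99.66% of genes. A gene not listed in a library was taken as 0 counts there.

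Expected counts were rounded and entered the quasi-likelihood test of edgeR 4.0.16 under R 4.3.3 (TMM scaling, filterByExpr, glmQLFit, glmQLFTest), all 4 libraries in one fit. Intervals are at 95% from the t distribution of that fit. P-values measure only the spread between the 2 replicates of a line, with that of each gene drawn toward the spread of all genes tested. The degrees of freedom were 4.07 to 5.07, part of which came from the other genes. Standard errors were the absolute log2 fold change over the square root of the F statistic. Smooth curves of count against length and GC content (mgcv 1.9.3) gave the offsets of the corrected fit. Alternatives were DESeq2 1.42.0, limma 3.58.1 on log2(FPKM + 1) and log2(FPKM + 0.1), a reimplemented MA-plot-based model after the method named by the authors, other scalings and filters, the replicate number as a block, and each library left out.

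Levels across genes used FPKM as deposited. The smallest amount of 3 counts covers counting error only. Positions are from GENCODE on GRCh37. Members and lists were chosen with earlier results of these data known. Named genes were all members, the rest of the family and, per list, the called genes with the 3 largest rises and falls. *ADAM10*, *ADAM15*, *ADAM17*, *RHBDF2*, *PIK3CA*, *PIK3R1*, *PTPN2*, *ERRFI1*, *LRIG1*, *EPS15*, the neighbors and the markers printed with values were added after their values were seen. The result for 1 marker gene is not reported here.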

Additional observations from a re-analysis of the deposited data

How the results depend on the processing

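*EGFR* and *HBEGF* were called lower at an adjusted p under 0.05, and *TGFA* kept a positive value, under all 19 alternative fits each. The stricter thresholds below are not among these. *AREG* was called in 15 of 20 settings and lost its call without the filter on low counts (adjusted p = 0.0561) and with any library left out. The members called higher were 0, and 1 under the MA-plot-based model. The number was 1 with length offsets and the replicate block, 2 with length and GC offsets, and 3 with those and the block. The members called lower were 3, and 5 under the MA-plot-based model. With the study's threshold (adjusted p under 0.001 and more than 2-fold) set on the main edgeR fit, 0 were called lower. The study used that threshold with DEGseq, and under the MA-plot-based model here *EGFR* (-1.43) and *HBEGF* (-1.23) met it. Of the pathway genes, 2 were called higher, and 11 under the MA-plot-based model, 5 with length offsets, 7 with these and the block, 5 with length and GC offsets, 4 with those and the block, 1 at more than 2-fold, 0 under the study's threshold and 1 to 6 with a library left out. For 22 called lower the values were 39, 10 at more than 2-fold, 0 under the study's threshold and 9 to 32 with a library left out. Shares over all genes are given only for the main and the corrected fit, so the other counts here stand without one. The cause of these shifts was not tested.

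Log2 fold changes of opposite sign were seen for *ERBB2* (0.22 with length offsets, 0.23 with these and the block, 0.39 with length and GC offsets with or without the block, and -0.22 to 0.17 with a library left out), *ERBB3* (0.15, 0.15, 0.32 and 0.32 in the same order, and 0.03 with isoform-weighted length), *EREG* (0.10 and 0.11 with length offsets), *BTC* (-0.18 with length and GC offsets with or without the block, and -0.13 to 0.22 with a library left out) and *NRG1* (-0.80 to 0.05 with a library left out).

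Same-numbered libraries share only a number, with a correlation of their deviations of 0.055. The replicate block alone gave 3 members lower and 0 higher, and 25 pathway genes lower and 2 higher. Over all genes tested, 2056 were called higher and 2734 lower, and 3017 and 2611 with length and GC offsets. Levels near 3 counts, as in *ERBB4*, *EPGN* and *NRG4*, are beyond the depth.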
